A study of Mus musculus with 8 samples.

Results

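Chromatin accessibility was examined at the loci of 10 genes of the TLR4 signaling complex in mouse bone marrow-derived macrophages (BMDMs): the receptor gene Tlr4 and its co-receptor Cd14, the adaptors Myd88, Tirap and Ticam1, the kinases Irak1 and Irak4, the ubiquitin ligase Traf6, and Map3k7 and Tab2 of the TAK1 complex. The members were the ATAC-seq peaks that the authors' tables name after these genes within 100 kb of the transcription start site (TSS). The table of wild-type (WT) BMDMs held 6 such peaks of 9698, in 6 of the 10 genes. The table that covers NCoR f/f BMDMs held 15 of 24867, in 9 of the 10 genes. Irak1 named no peak in either table, and Cd14, Myd88 and Traf6 named none in the WT table. All member peaks, 6 and 15, reached 4 tags in some library and passed the filter on low counts.

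ATAC-seq maps open chromatin by the insertion of a transposase, and a tag is a sequenced fragment end counted in a peak. The series held 8 libraries, 2 in each condition, from C57Bl6 BMDMs, all labeled with a time of 6 h. WT cells received vehicle (Veh), KLA, or RGFP966 and KLA, and NCoR f/f cells, which are homozygous for a floxed Ncor1 allele and by the study's description lack the LysM-Cre that deletes it in myeloid cells, received Veh. KLA is Kdo2-lipid A, the TLR4 agonist, and RGFP966 is an inhibitor of the deacetylase HDAC3. By the paper's methods, cells already had the inhibitor during a low-serum step that came before KLA. The 6 h is thus the time with KLA, and exposure to RGFP966 was longer. No library had RGFP966 alone, so a comparison of RGFP966 + KLA with Veh cannot separate the inhibitor from KLA. RGFP966 stands in the titles of its 2 libraries while their treatment label gives KLA alone, and the WT and NCoR f/f libraries carry different dates in their names, so genotype and date cannot be told apart. The labels do not tie the libraries to animals, so p-values measure the spread between these libraries only.

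TLR4 recognises lipopolysaccharide, which CD14 hands over to it. MyD88, recruited through TIRAP, assembles IRAK4 and IRAK1 and passes the signal to TRAF6, whose ubiquitin chains are bound by TAB2 and so activate the kinase TAK1, encoded by Map3k7, upstream of NF-kB and the MAP kinases. TRIF, encoded by Ticam1, forms the second branch, from endosomes, which leads to interferon regulatory factors.

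The libraries were shallow. WT libraries held 116733 to 202523 tags in peaks, which was 1.40% to 2.06% of their tags, and the NCoR f/f libraries 372367 and 509741. Member peaks in WT therefore had 4 to 33 tags per library, and levels are given as tags per 100000 tags in peaks. Of 8 macrophage marker genes, 5 had a promoter peak in the NCoR f/f table (Spi1, Itgam, Fcgr1, Cd68 and Mertk) and 1 (Cd68) in the WT table, while none of the markers of T cells (3), B cells (3), neutrophils (4) or fibroblasts (3) had any. In bulk libraries, a site open in fewer cells and a site less open in each cell cannot be told apart.

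Of the 6 WT peaks, 5 lay within 2 kb of the TSS and the Irak4 peak lay inside the gene. The sequence of the Tlr4 and the Tab2 promoter peaks is shown because the values below turn on them, and the Irak4 peak because it is the only distal site of the WT table. For the promoters, the printed stretch ends at the base before the annotated start and covers the part of the peak outside exons. All are from the mm10 genome, 5′ to 3′ on the strand of the gene. Capitals mark matches to AP-1 (TGANTCA) and PU.1 (GAGGAAGT, here on the opposite strand), which share a base.
Tlr4, upstream part of the peak, chr4:66827373-66827550, plus strand: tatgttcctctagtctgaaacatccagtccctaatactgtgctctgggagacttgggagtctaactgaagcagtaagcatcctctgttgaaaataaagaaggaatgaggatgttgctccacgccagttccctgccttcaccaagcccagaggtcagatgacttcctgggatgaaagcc
Tab2, upstream part of the peak, chr10:7956256-7956401, minus strand: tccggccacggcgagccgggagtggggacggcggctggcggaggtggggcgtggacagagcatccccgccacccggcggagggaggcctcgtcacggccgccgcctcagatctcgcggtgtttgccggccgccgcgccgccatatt
Irak4, whole peak in intron 10 of 11, chr15:94565993-94566213, plus strand: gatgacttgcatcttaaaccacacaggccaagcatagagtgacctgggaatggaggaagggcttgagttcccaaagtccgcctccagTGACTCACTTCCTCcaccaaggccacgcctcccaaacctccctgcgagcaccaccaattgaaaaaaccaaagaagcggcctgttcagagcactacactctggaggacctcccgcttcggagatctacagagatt

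The Tlr4 promoter peak had a GC content of 49.2% and the Tab2 promoter peak of 77.1%, against a median of 65.04% over the 4906 WT promoter peaks measured. Within 200 bp at the peak center, on both strands, 18.2% of the 9527 WT peaks on the main chromosomes matched AP-1, 7.49% PU.1, 10.9% C/EBP (TTGCNNAA), 4.89% the NF-kB p65 consensus and 2.48% the IRF consensus. Among the 4906 promoter peaks these shares were 4.61%, 3.18%, 5.79%, 3.75% and 1.43%. The Irak4 peak held the AP-1 and the PU.1 match, which overlap by their end bases. The Map3k7 peak held 1 NF-kB p65 and 1 C/EBP match. The other 4 WT peaks, of Tlr4, Tirap, Ticam1 and Tab2, held none of the 5 in that window, but the Ticam1 peak held an AP-1 match outside it. In the NCoR f/f table the peak at the Myd88 start held 2 NF-kB p65 matches and 1 IRF match, and the peak 1327 bp downstream of the Tlr4 start held 1 AP-1 match. A match is a run of letters, and binding was not measured here.

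**Figure D1:**
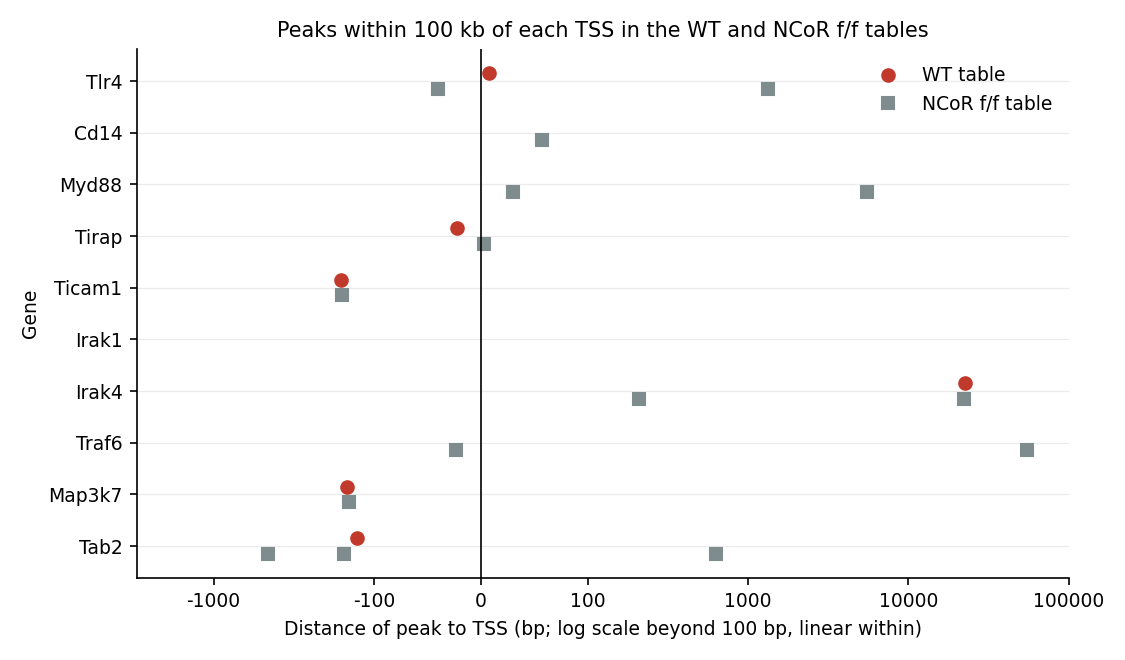
Distance in bp of each member peak to the TSS of its gene (log scale beyond 100 bp) for the WT table (red circles) and the NCoR f/f table (gray squares). Most peaks lie at the starts. Irak4, Myd88 and Traf6 also have a distal peak in the NCoR f/f table. The only Irak4 peak of the WT table is distal, and Irak1 has no peak in either.

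All 6 WT peaks overlapped a peak of the same gene in the NCoR f/f table, while 9 of its 15 peaks had no counterpart in WT. Of these 15, 12 lay within 2 kb of a TSS and 3 were distal, at 22349 bp from the Irak4 start, 5543 bp from the Myd88 start and 54581 bp from the Traf6 start. The Traf6 site lies in an intron of Prr5l, and the Myd88 site is intergenic in the authors' annotation and inside Slc22a14 in GENCODE. The nearest member-named peaks beyond the 100 kb window were a Tab2 peak at -109821 bp in the NCoR f/f table and, much farther out, a Map3k7 peak at 215799 bp in WT. The WT table merged reproducible (IDR) peaks of 3 conditions. The Tlr4 and Ticam1 peaks were in the sets of all 3, the Tab2 peak in those of KLA and RGFP966 + KLA, the Map3k7 peak in that of KLA, and the Tirap and Irak4 peaks in that of RGFP966 + KLA. The last 4 were thus in the table only through treated cells.

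Whether KLA alters accessibility at these loci was tested with edgeR's quasi-likelihood test over all 9698 peaks, with a call at a Benjamini-Hochberg adjusted p under 0.05 and a fold change over 2. No member peak met both criteria for KLA against Veh, and the Tlr4 peak met the adjusted p alone. The Tlr4 promoter peak, chr4:66827373-66827746, overlapping the first exon, had 29 and 27 tags in Veh, 23 and 11 in KLA, and 24 and 19 in RGFP966 + KLA. Scaled to depth, its levels were 22.5 and 22.3 in Veh, 12.3 and 9.42 in KLA, and 11.9 and 9.78 in RGFP966 + KLA. Both Veh libraries were above all 4 treated libraries, and the KLA and RGFP966 + KLA libraries overlapped. Pooled over both libraries, the Veh level of 22.4 had an exact Poisson interval of 16.9 to 29.1 at 95% confidence, and the KLA level of 11.2 one of 7.75 to 15.6; these cover counting error only.

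With KLA the Tlr4 peak was lower than in Veh by a log2 fold change of -0.998 (SE 0.31, adjusted p = 0.0449 by edgeR), a 2.00-fold difference with a 95% interval of 1.30 to 3.07 which missed the fold threshold. On summed tags per gene, where the rule asks for the adjusted p alone, Tlr4 was called (log2 fold change -0.996, SE 0.31, adjusted p = 0.0425 by edgeR). Tlr4 named 1 WT peak, so its summed tags are the same counts and add no evidence. Only the rule and the other features tested differ. With RGFP966 + KLA, Tlr4 was called against Veh under both rules, on the same counts. The log2 fold change of the peak was -1.04 (SE 0.29, adjusted p = 0.0156 by edgeR), 2.06-fold lower (1.37 to 3.10). Between RGFP966 + KLA and KLA the log2 difference was -0.04 (95% interval -0.71 to 0.62, adjusted p = 0.973 by edgeR), an interval from 1.63-fold lower to 1.54-fold higher. The calls rest on the tool, the scaling and single libraries. DESeq2 gave adjusted p = 0.804 for KLA and 0.536 for RGFP966 + KLA against Veh, with log2 fold changes of -1.05 and -1.10, and scaling to all tags of each library gave edgeR adjusted p = 0.166 and 0.158, with log2 fold changes of -1.09 and -0.95. The peak call for RGFP966 + KLA was lost without either Veh or either RGFP966 + KLA library (edgeR adjusted p from 0.0559 to 0.132), and the call for KLA on summed tags without either Veh or either KLA library (0.142 to 0.191) or with only peaks within 2 kb or 20 kb (0.0734 and 0.0526). The windows of 2 kb and 20 kb held the same Tlr4 counts and changed only the other genes tested. In the NCoR f/f table a further Tlr4 peak lay in the first intron, for which the WT table has no counterpart.

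Counted over the members, 0 of 6 peaks were called for KLA against Veh, beside 5.03% of all peaks, 2 had an unadjusted p under 0.05 in edgeR (Tlr4 and Tab2), and DESeq2 called 0 with 1 unadjusted. For RGFP966 + KLA against KLA 0 of 6 were called by edgeR, beside 0.34% of all peaks, with 1 (Tab2) at an unadjusted p under 0.05, and DESeq2 called 0 with 0 unadjusted. For RGFP966 + KLA against Veh 1 of 6 was called (Tlr4, lower), beside 9.88% of all peaks, with 2 unadjusted (Tlr4 and Ticam1), and DESeq2 called 0 with 1 unadjusted. Over the whole WT table DESeq2 with its own size factors called 0 peaks in each of the 3 comparisons. On summed tags, 1, 0 and 1 of 6 genes were called, beside 4.3%, 0.318% and 9.29% of 6598 genes. Each of the 6 genes has 1 WT peak, so these are the same counts under a rule without a fold threshold. In the order of these comparisons, the median log2 fold change of the 6 peaks was 0.15, -0.24 and 0.09, beside 0.02, 0.03 and 0.04 over all peaks. Shares of so few peaks cannot be set apart from those backgrounds. The share of all peaks with an unadjusted p under 0.05 was not counted, so the unadjusted counts have no background beside them. The comparisons share libraries, so their values are not independent of each other.

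**Figure D2:**
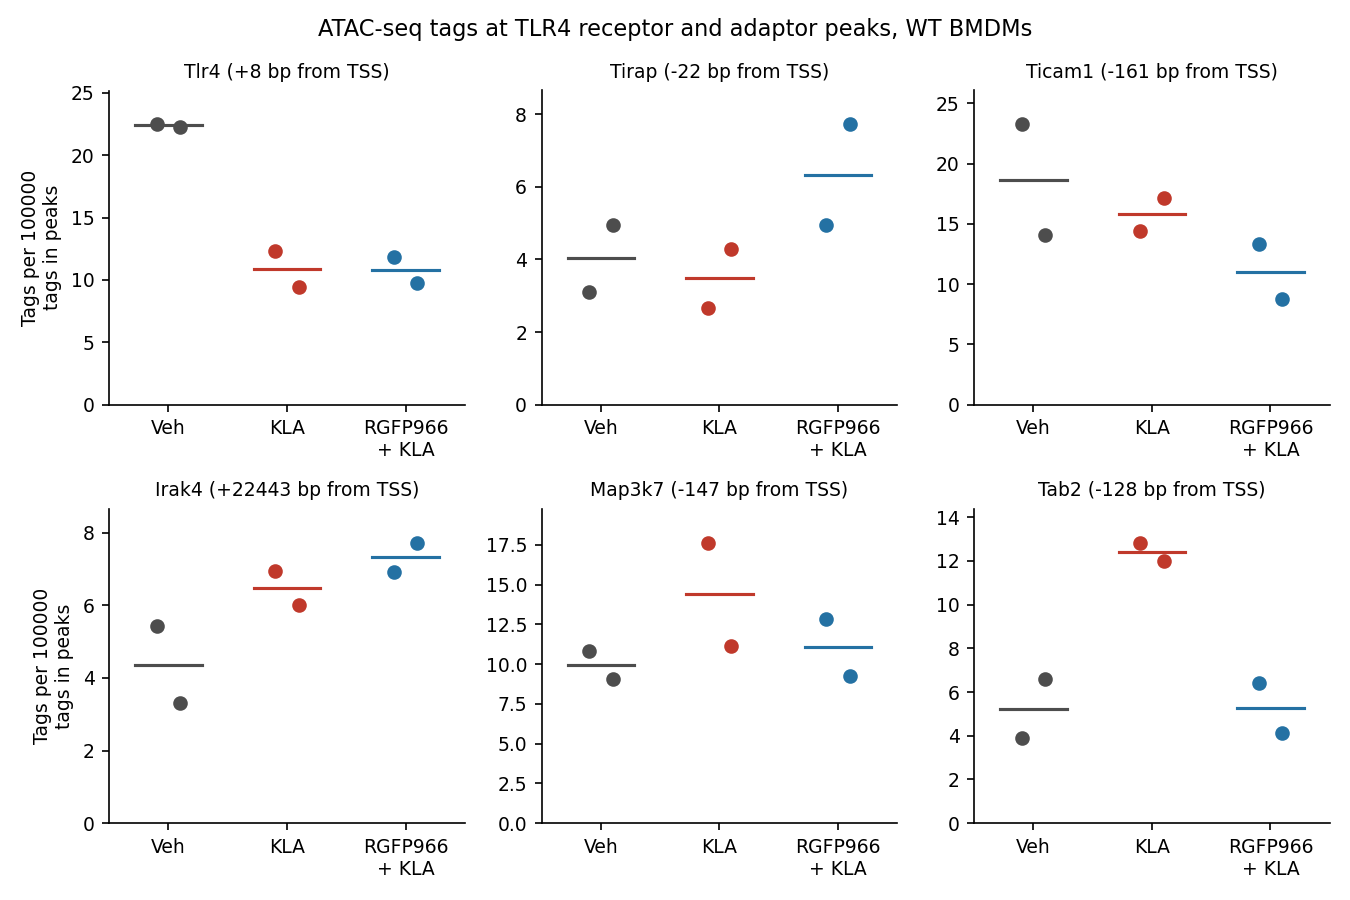
Tags per 100000 tags in peaks (y axis, from 0, own scale in each panel) at the 6 WT member peaks, by condition (x axis); points are libraries and lines their mean. At Tlr4 the Veh libraries, 22.5 and 22.3, stand above the others, and at Tab2 the KLA libraries, 12.8 and 12.0, stand above the others.

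Of the adaptors, neither Tirap nor Ticam1 passed the test in any comparison. TIRAP bridges TLR4 and MyD88 at the plasma membrane. Its promoter peak, chr9:35199871-35200104, had 4 and 6 tags in Veh, 5 and 5 in KLA, and 10 and 15 in RGFP966 + KLA. It was in the table only through the IDR set of RGFP966 + KLA, so its level there is in part what admitted it. The levels were 3.10 and 4.95, then 2.67 and 4.28, then 4.94 and 7.72, so that the Veh and KLA libraries overlapped and the lower RGFP966 + KLA library fell just under the higher Veh library. The log2 fold change of RGFP966 + KLA against KLA was 0.92 (95% interval -0.05 to 1.89, adjusted p = 0.406 by edgeR).

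The Ticam1 promoter peak, chr17:56276754-56277103, had 30 and 17 tags in Veh, 27 and 20 in KLA, and 27 and 17 in RGFP966 + KLA. The levels were 23.3 and 14.04, 14.4 and 17.1, and 13.3 and 8.75. The Veh libraries enclosed both KLA libraries, and both RGFP966 + KLA libraries were below all others. Against Veh the log2 fold change with RGFP966 + KLA was -0.76 (95% interval -1.39 to -0.12), with an unadjusted p of 0.0205 and an adjusted p of 0.118 by edgeR. KLA against Veh gave -0.28 (95% interval -0.90 to 0.35, adjusted p = 0.693 by edgeR).

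Myd88, the adaptor shared by most Toll-like receptors, named no WT peak. The WT peak nearest to its gene body, 979 bp away, is at the start of the neighboring gene Acaa1a and had 32 and 23 tags in Veh, 56 and 31 in KLA, and 49 and 56 in RGFP966 + KLA. That peak did not pass the test, with log2 fold changes of 0.38 for KLA against Veh (adjusted p = 0.480 by edgeR) and -0.11 for RGFP966 + KLA against KLA (adjusted p = 0.878 by edgeR). In NCoR f/f BMDMs the peak at the Myd88 start had 8 and 9 tags, and was in the table through the KLA set of NCoR-deficient cells only. The peak at 5543 bp had 19 and 13.

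Irak4 encodes the first kinase of the MyD88 complex. Its WT peak, the intronic site shown above, had 7 and 4 tags in Veh, 13 and 7 in KLA, and 14 and 15 in RGFP966 + KLA. The peak was in the table only through the IDR set of RGFP966 + KLA, so its level there is in part what admitted it. The levels were 5.43 and 3.30, 6.95 and 6.00, and 6.91 and 7.72, with both Veh libraries below all 4 treated libraries. The differences did not pass the test, with a log2 fold change of 0.57 for KLA (95% interval -0.45 to 1.60, adjusted p = 0.604) and 0.72 for RGFP966 + KLA (95% interval -0.23 to 1.67, adjusted p = 0.355), both against Veh by edgeR. The start of Irak4 is covered in WT by a peak that is named after Pus7l, the divergent neighbor, with 19 and 15 tags in Veh, 22 and 17 in KLA, and 26 and 24 in RGFP966 + KLA. Its log2 fold changes against Veh were -0.08 with KLA and -0.11 with RGFP966 + KLA (adjusted p = 0.937 and 0.868 by edgeR). For Irak1, the partner kinase of IRAK4, the nearest peak lay 61631 bp from the gene in WT and 46021 bp in the NCoR f/f table, in each case named after another gene.

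Traf6, the ubiquitin ligase downstream of the IRAKs, also had no WT peak, and the nearest lay 49247 bp from the gene. In NCoR f/f BMDMs its start held 11 and 22 tags and the distal site in Prr5l 10 and 16.

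Tab2, the ubiquitin-binding partner of TAK1, had the largest fold changes among the 6 peaks, in opposite directions. Its promoter peak, chr10:7956101-7956401, had 5 and 8 tags in Veh, 24 and 14 in KLA, and 13 and 8 in RGFP966 + KLA. The peak was in the table through the IDR sets of KLA and RGFP966 + KLA but not of Veh, so its level in KLA is in part what admitted it. The levels were 3.88 and 6.61 in Veh, 12.8 and 12.0 in KLA, and 6.42 and 4.12 in RGFP966 + KLA. Both KLA libraries were above all other libraries, while the Veh and RGFP966 + KLA libraries overlapped.

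KLA against Veh gave 2.39-fold (95% interval 1.31 to 4.33) more tags at Tab2, at an unadjusted p of 0.00503 and an adjusted p of 0.0722 by edgeR. RGFP966 + KLA against KLA gave 2.34-fold (1.39 to 3.95) fewer, at an unadjusted p of 0.00185 and an adjusted p of 0.113 by edgeR. Neither passed the threshold, nor did they in any of the 15 alternatives run for each, with adjusted p from 0.0693 to 0.904 for the first and from 0.0893 to 1.00 for the second. These comparisons share the KLA libraries, and a level that is high there moves both. Among the alternatives, the fit without a filter on tags repeated the main values. RGFP966 + KLA and Veh differed by a log2 fold change of 0.03 (95% interval -0.97 to 1.02).

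Map3k7, the gene of TAK1 itself, did not follow with a difference past the test. Its promoter peak, chr4:31963766-31964154, had 14 and 11 tags in Veh, 33 and 13 in KLA, and 26 and 18 in RGFP966 + KLA. It was in the table only through the IDR set of KLA, so its level there is in part what admitted it. The levels were 10.9 and 9.08, 17.6 and 11.1, and 12.8 and 9.27, so that the 2 KLA libraries differed more from each other than the lower of them did from Veh. The log2 fold change was 0.59 for KLA against Veh (95% interval -0.12 to 1.31, adjusted p = 0.376 by edgeR) and -0.44 for RGFP966 + KLA against KLA (95% interval -1.06 to 0.18, adjusted p = 0.534 by edgeR). The peak beyond the window, at 215799 bp, had a log2 fold change of 0.04 for KLA against Veh (adjusted p = 0.979 by edgeR).

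**Figure D3:**
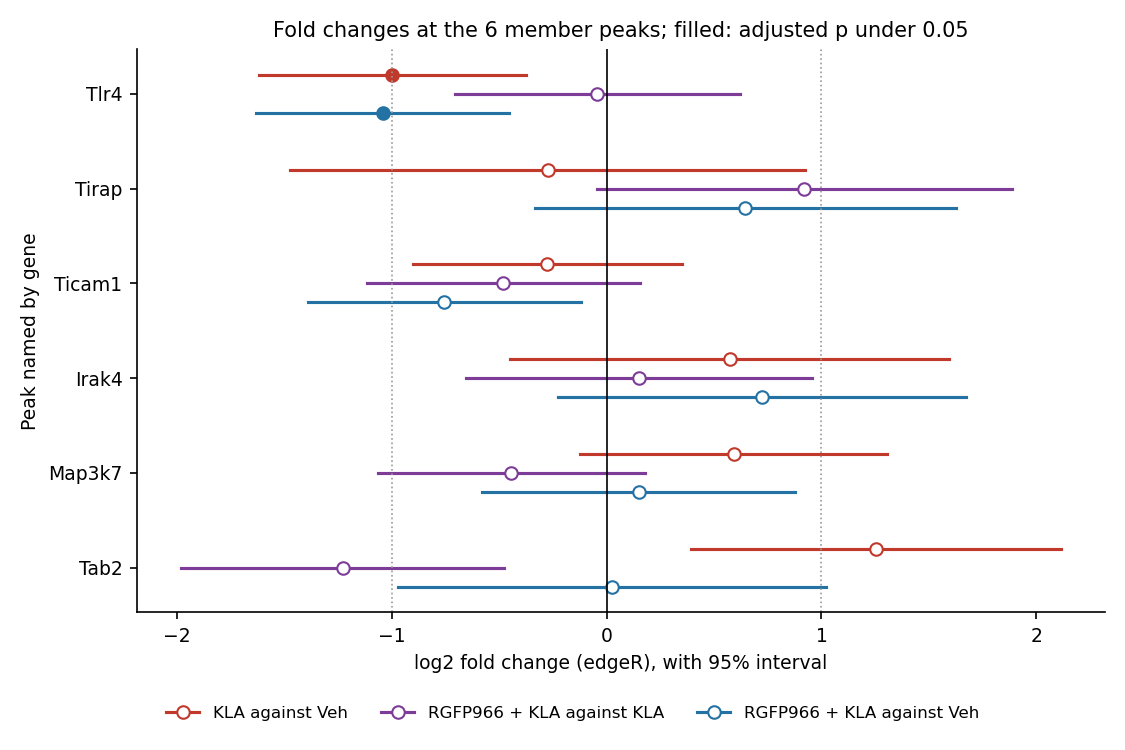
Log2 fold change (x axis) with 95% interval from edgeR for each WT member peak (y axis) in 3 comparisons, where filled points have an adjusted p under 0.05 and dotted lines mark a fold change of 2. The Tlr4 points against Veh, at -0.998 and -1.04, are filled, and the first and second Tab2 intervals lie on opposite sides of 0 with open points.

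Levels between genes were compared per kb of peak. In WT Veh, Tlr4 (59.9 ± 0.37, SD, n = 2, tags per 100000 tags in peaks per kb) and Ticam1 (53.3 ± 18.6) were the highest, followed by Map3k7 (25.6 ± 3.22), Irak4 (19.8 ± 6.80), Tab2 (17.4 ± 6.41) and Tirap (17.2 ± 5.60). The libraries of Tlr4 and Ticam1 overlapped, as did those of the last 4 in this order, neighbor by neighbor. In KLA the order was Ticam1 (45.1 ± 5.45), Tab2 (41.2 ± 1.97), Map3k7 (37.0 ± 11.8), Irak4 (29.3 ± 3.05), Tlr4 (29.0 ± 5.44) and Tirap (14.9 ± 4.86). Neighbors in that order overlapped between libraries except for Tlr4 and Tirap. Tlr4 thus stood at the top in Veh and next to last in KLA, while Tab2 moved from next to last to just below Ticam1. Among WT promoter peaks, the per-kb level of Tlr4 was at percentiles 85.6 and 87.9 in the Veh libraries, 47.0 and 28.6 in KLA, and 45.5 and 27.7 in RGFP966 + KLA. Tab2 was at percentiles 4.70 and 18.0 in Veh, 69.0 and 64.5 in KLA, and 14.7 and 3.36 in RGFP966 + KLA, for a peak that the KLA set helped to admit. With RGFP966 + KLA the means ran from 33.1 ± 2.59 at Irak4 to 17.5 ± 5.40 at Tab2, and the libraries of Irak4, Ticam1, Tlr4, Map3k7 and Tirap overlapped. The Irak4 and Tirap peaks were in the table only through the set of that condition. The higher Tab2 library, at 21.3, lay just above the lower Tirap library, at 21.1.

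In unstimulated NCoR f/f BMDMs, counted on other peaks and not tested against WT, the Tlr4 locus again had the highest mean level per kb of peak. Over its 2 peaks it reached 19.7 ± 1.52 tags per 100000 tags in peaks per kb (SD, n = 2), from 44 and 54 tags. Ticam1 followed at 18.8 ± 4.89, with 35 and 33 tags. Map3k7 (12.7 ± 4.37), Irak4 (11.7 ± 3.29), Tab2 (11.4 ± 3.13), Myd88 (11.2 ± 4.01), Traf6 (10.9 ± 2.13), Tirap (10.1 ± 1.67) and Cd14 (10.1 ± 2.67) lay close together. Each neighboring pair in this order overlapped between libraries, so the order among the last 7 is not set. Per kb, both Tlr4 libraries were above both libraries of each of those 7. Without division by peak width, Tlr4 was at 11.8 and 10.6 and Tab2, with 3 peaks, at 8.86 and 13.1, so their libraries overlapped. Single peaks ranged from 22.5 ± 0.017 at the Tlr4 start, with 27 and 37 tags, to 5.93 ± 0.47 at the Tab2 peak 629 bp into the gene, with 9 and 11. The peak set merged IDR peaks of NCoR f/f and NCoR-deficient cells, each with Veh and with KLA. Not in the NCoR f/f Veh set were the peaks at the Tlr4 and Myd88 starts, the Tab2 peak at 629 bp and the distal Irak4 and Traf6 sites. These peaks, which also enter the levels per gene, came in through other conditions. The Tab2 peak at -153 bp differed most between the libraries, with 13 and 43 tags. Cd14, the co-receptor that delivers the ligand, had 16 and 15 tags at its start (chr18:36726580-36726937).

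**Figure D4:**
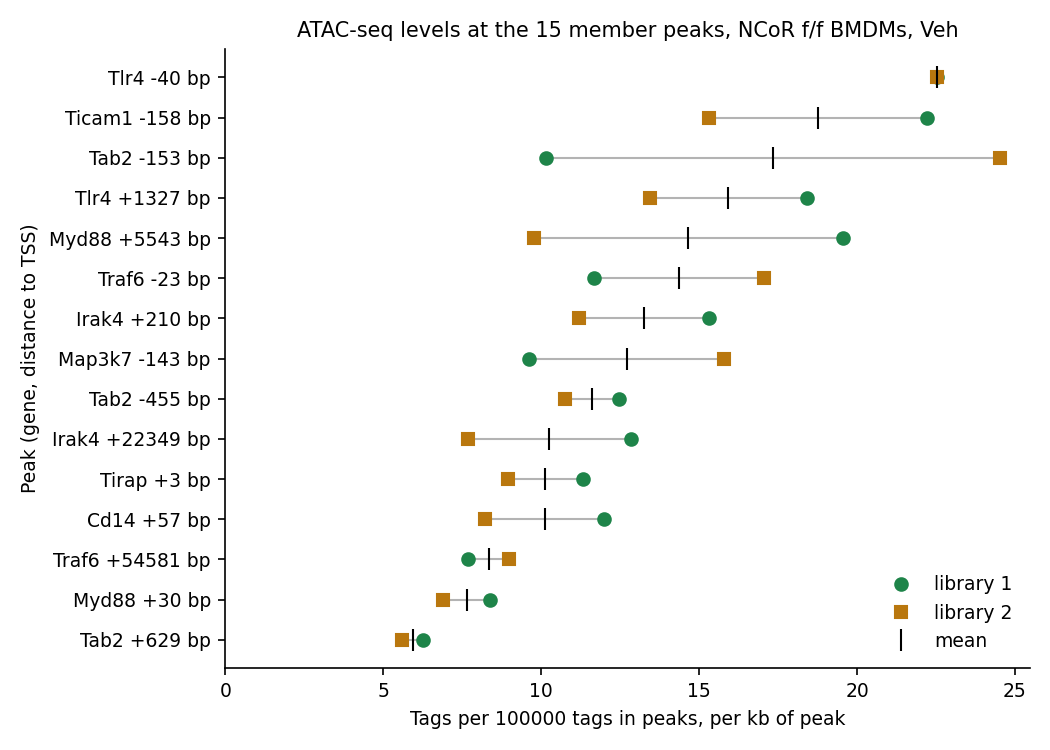
Tags per 100000 tags in peaks per kb of peak (x axis, from 0) at the 15 member peaks of the NCoR f/f table (y axis: gene and distance to the TSS) in the 2 Veh libraries (circles and squares) with their mean (ticks), sorted by the mean. The peak at the Tlr4 start is at 22.5 in both libraries, and the Tab2 peak at -153 bp spans 10.1 to 24.5.

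The other genes of the pathway were read from a list of 57, made up of other Toll-like receptors, co-receptors, adaptors, IRAK, TRAF and ubiquitin factors, kinase complexes and MAP kinases, of which 36 had 56 WT peaks. For KLA against Veh 1 peak of the 56 was called, higher, beside 5.03% of all peaks, and 12 had an unadjusted p under 0.05 in edgeR. For RGFP966 + KLA against KLA 1 was called, lower, beside 0.34% of all peaks, and 10 had an unadjusted p under 0.05. For RGFP966 + KLA against Veh 5 were called higher and 2 lower, beside 9.88% of all peaks, and 17 had an unadjusted p under 0.05. The median log2 fold change of the 56 peaks was 0.00 (0.0040), -0.10 and 0.01 in the same order, beside 0.02, 0.03 and 0.04 over all peaks. DESeq2 called none of the 56 peaks in any comparison, with 1, 2 and 6 at an unadjusted p under 0.05. The shares over all peaks given here are for calls. The share with an unadjusted p under 0.05 was not counted, so no excess can be read from the unadjusted counts.

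Map2k6, which encodes MKK6, an activator of p38, held the peak called for KLA, 28239 bp downstream of its start. It had 5 and 6 tags in Veh, 27 and 13 in KLA, and 28 and 28 in RGFP966 + KLA, with all 4 treated libraries above both Veh libraries in level. The log2 fold change was 1.56 (SE 0.44, adjusted p = 0.0226 by edgeR) with KLA and 1.66 (SE 0.41, adjusted p = 0.00570 by edgeR) with RGFP966 + KLA. On summed tags Map2k6 rose 2.46-fold with KLA (adjusted p = 0.00323 by edgeR) and 2.67-fold with RGFP966 + KLA (adjusted p = 0.000351 by edgeR), both against Veh. DESeq2 called none of the 36 genes of the list on summed tags in either comparison, with 2 and 3 at an unadjusted p under 0.05.

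Mapk9, the gene of JNK2, held the peak that was lower with RGFP966 + KLA than with KLA, at -1352 bp from its start. It had 4 and 5 tags in Veh, 14 and 12 in KLA, and 4 and 4 in RGFP966 + KLA (log2 fold change -2.04, SE 0.48, adjusted p = 0.0330 by edgeR). As at Tab2, the KLA libraries were the highest, here with a call by edgeR. The IDR sets that admitted the called pathway peaks were not read out. Their level in the condition where they are high may be in part what admitted them. For RGFP966 + KLA against Veh, a peak of Tbk1, a kinase of the TRIF branch, went from 1 and 1 tags to 10 and 11 (adjusted p = 0.0184 by edgeR), and a peak of Pik3ap1, the adaptor BCAP, from 2 and 1 to 13 and 11 (adjusted p = 0.0218 by edgeR). Too few tags in Veh stand behind these for a fold change. Other called peaks, named after their values were seen, were a second Map2k6 peak among the higher ones, and peaks of Birc2 (19 and 25 tags in Veh, 12 and 21 in RGFP966 + KLA) and Mapkapk2 (14 and 7, then 3 and 8) among the lower ones.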

How the data were processed

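ATAC-seq was done on 8 BMDM libraries. By the submitters' notes and the paper's methods, the authors aligned the reads with Bowtie2 (mm10), used HOMER for peak calling, took for each condition the IDR peaks of its best correlated pair of samples, merged these into 1 peak set per table and counted tags in it. The deposited values are raw counts of tags per peak and library, with at most 3 tags per position and no scaling. ChIP-seq and RNA-seq data were not analysed here.

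Tags were divided by the total tags in peaks of each library. WT conditions were compared with edgeR 4.0.16 (glmQLFit, glmQLFTest; R 4.3.3) over all peaks, or all genes with their peaks within 100 kb summed, that reached 4 tags in 1 sample or more; all 6 WT libraries shared 1 model without covariates, and p-values were adjusted by Benjamini-Hochberg over all features. DESeq2 1.42.0 was an alternative. The scripts were tested on simulated counts. The NCoR f/f table has 1 condition and no test. Over all peaks, squared replicate differences were 0.95 to 1.08 times their counting variance. Outside a pair's own IDR set they were 1.20 to 1.48 times it. IDR selects on reproducibility, so a larger spread outside the set, and a smaller one inside it, is in part built in. Replicate libraries were kept as separate samples.

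Annotation came from GENCODE and RefSeq, and sequence from the mm10 genome. Named were all 10 genes, with the peak nearest each TSS and every called member peak, and of the pathway list at most the 3 genes of smallest adjusted p per comparison, with those said to be added; 1 called pathway peak is not reported here. The members and gene lists were chosen with earlier results of these data known. Alternatives covered scaling, tool, filter, samples, thresholds, window and a replicate block.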

Additional observations from a re-analysis of the deposited data

How the results depend on the processing

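The depth of 4 to 33 tags per WT member peak limits every value here. No member peak passed for RGFP966 + KLA against KLA under any setting run. For KLA against Veh the count of called member peaks went from 0 to 1, Tlr4 in each case, with TMM factors (log2 fold change -1.01, adjusted p = 0.0394 by edgeR), with a replicate block, with a fold threshold of 1.5 and with no fold threshold, and was 0 with each library left out. For RGFP966 + KLA against Veh it went from 1 to 0 with loess offsets (-0.92, adjusted p = 0.0450, fold under 2), with total tags of each library and with both DESeq2 fits, and was 0 to 1 with a library left out: Tlr4 was not called without Veh library 1, Veh library 2, RGFP966 + KLA library 1 or RGFP966 + KLA library 2 (adjusted p = 0.0971, 0.0722, 0.0559 and 0.132 by edgeR). On summed tags, the count of genes went from 1 to 0 for both comparisons with Veh under total tags and both DESeq2 fits (for 1 of them DESeq2 gave Tlr4 no adjusted p), for KLA also with peaks within 2 kb or 20 kb (adjusted p = 0.0734 and 0.0526 by edgeR), and was 0 to 1 with a library left out: Tlr4 was lost for KLA without either Veh or either KLA library (adjusted p from 0.142 to 0.191), and for RGFP966 + KLA without either Veh library or RGFP966 + KLA library 2 (0.104, 0.0700 and 0.0954). Fewer libraries in a group leave less to test with. The windows of 2 kb and 20 kb held the same Tlr4 counts and changed only the other genes in the test. Over all its settings the log2 fold change of the Tlr4 peak ran from -1.24 to -0.86 for KLA and from -1.19 to -0.91 for RGFP966 + KLA against Veh, with adjusted p from 0.0309 to 0.804 and from 0.0100 to 0.547.

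Directions turned only where no call was made. Tlr4 for RGFP966 + KLA against KLA became 0.021 with loess offsets and 0.14 with total tags, and with a library left out ran from -0.19 to 0.20. Total tags moved the median of all peaks to 0.21 for this comparison and to 0.14 for RGFP966 + KLA against Veh, and relative to it Tlr4 was at -0.07 and -1.10. Tab2 for RGFP966 + KLA against Veh became -0.029 (TMM), -0.023 (loess) and -0.037 (DESeq2), on summed tags -0.0042 (TMM and loess), and ran from -0.33 to 0.44 with a library left out. With a library left out, KLA against Veh ran from -0.58 to 0.14 at Ticam1 and from -0.58 to 0.10 at Tirap, and RGFP966 + KLA against Veh from -0.11 to 0.36 at Map3k7. Tirap in the last comparison became -0.13 with loess offsets (summed tags -0.084). The cause of these was not tested. Of 547 values for single peaks and genes, 497 kept direction and call. These values overlap: the peak and the summed tags of a gene are the same counts, and the fit without a filter on tags repeats the main fit. A feature that was called in no setting also counts as kept where its direction held. The share is thus no measure of robustness.

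Over the whole table, edgeR called 488, 33 and 958 peaks in the 3 comparisons, DESeq2 0, 0 and 0, and total tags 305, 53 and 711; loess offsets gave 489, 91 and 610, with 46.0%, 21.98% and 38.9% of them higher in place of 65.6%, 69.7% and 69.7%. On summed tags, edgeR called 284, 21 and 613 genes, DESeq2 18, 0 and 5, total tags 101, 3 and 273, and peaks within 2 kb 77, 8 and 155.

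The replicate numbers come with no stated pairing. Same-numbered libraries deviated together with correlations of 0.033 to 0.071 over 3402 peaks. Over all peaks, squared replicate differences were 1.07 (Veh), 1.08 (KLA) and 0.95 (RGFP966 + KLA) times their counting variance. Correlations of differences that are mostly counting error cannot settle whether the libraries were paired. With a replicate block, edgeR called 558, 56 and 1036 peaks over the whole table. With the replicate block the Tlr4 peak was at -1.02 (adjusted p = 0.0309 by edgeR) for KLA and -1.04 (adjusted p = 0.0103 by edgeR) for RGFP966 + KLA against Veh, and 1, 0 and 1 member peaks were called. NCoR f/f levels moved by less than 1 SD with total tags.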
